A study of Mus musculus with 20 samples.

Results

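The values below describe embryo-to-embryo covariation within genotype in XY mouse gonads at embryonic day 11.5: which genes were higher or lower together in single gonad pairs of one genotype and one narrow stage window. All 20 arrays of the series were used. From each gene's log2 ratio on each array the mean of the array's genotype group was subtracted, so that what remains, the residual, is the departure of one gonad pair from the other gonads of its genotype. The 22970 genes whose probe was well above background on at least 15 of the 20 arrays were kept. Genes were then read against the residuals of Sox9, Amh and Dhh, the 3 genes that mark differentiating Sertoli cells.

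In the mouse XY gonad, supporting cell precursors that express Sry turn on Sox9, become Sertoli cells and then secrete anti-Müllerian hormone and desert hedgehog. SOX9 and FGF9 sustain each other in these cells while the WNT4 and RSPO1 signals of the ovarian pathway are held down. Sertoli cell differentiation runs over a few hours to days around this stage, and the Sertoli cells then organise the rest of the testis.

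The 4 genotype groups were C57BL/6J, 129S1/SvImJ and their hybrids in both directions, labelled (B6x129S1)F1 and (129S1xB6)F1, each with 5 arrays, and the labels do not state which parent of a hybrid was the mother. Each array held RNA from 1 pair of gonads of 1 untreated XY embryo, freed of mesonephros and taken at 17 to 21 tail somites, with 200 to 450 ng of RNA. That range is given for all embryos together, so the residuals could not be set against the stage of each embryo. The gonad RNA was in the Cy5 channel of every array and a common pool in Cy3, with no dye swap. The pool was made from 4 XY and 3 XX gonad pairs and 4 XY and 2 XX whole embryos of a cross of Sox9-ECFP (C57BL/6J) with CD-1 mice. Every value below is therefore a log2 ratio of gonad over that pool, and a level of 0 means a signal equal to the pool's. Samples are named by a code such as H1. Some share its letter, which may mark a litter, but the labels do not say so.

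Between 78.4% and 88.3% of gene probes were well above background per array, and the median net Cy5 signal ran from 108 to 231 intensity units. The number of arrays limits the precision. The arrays lay on 5 slides, and slides 2 to 4 held all 4 groups. Slide 1 held only arrays of the parental strains and slide 5 only arrays of the hybrids. One library stood apart for liver genes. C57BL/6J H1 had Afp, the fetal liver and yolk sac alpha-fetoprotein, at 2.78, against -7.5 to -3.7 on the other 19 arrays. The 10 tested liver and trophoblast genes averaged 2.47 above their group mean in H1. The counts that lead below are given without H1 as well, and the part of this signal in the results was not tested beyond that. Over all genes C57BL/6J K2 had the largest root mean square residual, 0.344, against 0.209 to 0.324 on the other 19 arrays. Of the other cell types' defining markers, the germ cell genes Pou5f1, Ddx4 and Dppa3 had medians of 2.78, 3.82 and 6.19. The steroidogenic genes Star, Cyp11a1 and Cyp17a1 had medians of 1.56, 2.73 and 0.21. For the mesonephric genes Pax2, Lhx1 and Pax8 the medians were -0.28, -1.01 and 0.67. Endothelial Pecam1, Cdh5 and Kdr had 1.12, 0.53 and 1.03, and erythroid Hba-x, Hbb-y and Alas2 had -0.21, -0.25 and 0.51. Macrophage Csf1r, C1qa and Aif1 had 0.22, -0.19 and -0.12. Sry was well above background on 13 of the 20 arrays and so lay outside the genes tested.

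Sox9, the transcription factor that starts Sertoli differentiation, varied by 8.83-fold between the lowest and the highest array. In C57BL/6J its level was 0.62 in H1, 0.53 in H2, 0.59 in H3, 0.09 in H4 and 1.43 in K2. In 129S1/SvImJ it was -0.87 in A3, 0.48 in A4, 0.32 in A6, 0.47 in D4 and -1.69 in G3. Both K2 at the high end and G3 and A3 at the low end lay well away from the other gonads of their strain. In (B6x129S1)F1 Sox9 was 1.45 in C2, 0.54 in C3, 0.60 in C4, 0.81 in E1 and 0.48 in F2. In (129S1xB6)F1 it was 1.32 in L1, 1.08 in L2, 0.26 in L4, 0.11 in M3 and 0.11 in M6. The ranges of the 4 groups overlapped, except that those of 129S1/SvImJ and (B6x129S1)F1 only met, at 0.48.

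Amh, the hormone that makes the Müllerian duct regress, spanned 3.39-fold. In C57BL/6J it was 0.21 in H1, -0.11 in H2, 0.20 in H3, -0.11 in H4 and 0.55 in K2, and in 129S1/SvImJ 0.09 in A3, 0.38 in A4, 0.55 in A6, 1.40 in D4 and -0.14 in G3. K2 was again the highest C57BL/6J gonad and G3 the lowest 129S1/SvImJ gonad, while D4 was the highest 129S1/SvImJ gonad. In (B6x129S1)F1 it was 1.62 in C2, 0.92 in C3, 1.46 in C4, 0.12 in E1 and 1.07 in F2, and in (129S1xB6)F1 1.16 in L1, 0.31 in L2, -0.03 in L4, 0.19 in M3 and 0.51 in M6.

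Dhh, the hedgehog ligand that Sertoli cells send to Leydig cell precursors, spanned 58.0-fold. In C57BL/6J it was 3.04 in H1, 2.33 in H2, 1.43 in H3, 2.84 in H4 and 5.25 in K2. In 129S1/SvImJ it was 1.91 in A3, 5.26 in A4, 4.82 in A6, 4.86 in D4 and 0.50 in G3, so that 3 gonads lay near 5 and the other two below 2. In (B6x129S1)F1 it was 6.05 in C2, 5.81 in C3, 6.35 in C4, 4.16 in E1 and 6.19 in F2, and in (129S1xB6)F1 5.00 in L1, 3.86 in L2, 2.54 in L4, 3.1 in M3 and 4.97 in M6. E1 was the low gonad of its group for both Amh and Dhh, but not for Sox9.

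**Figure D1:**
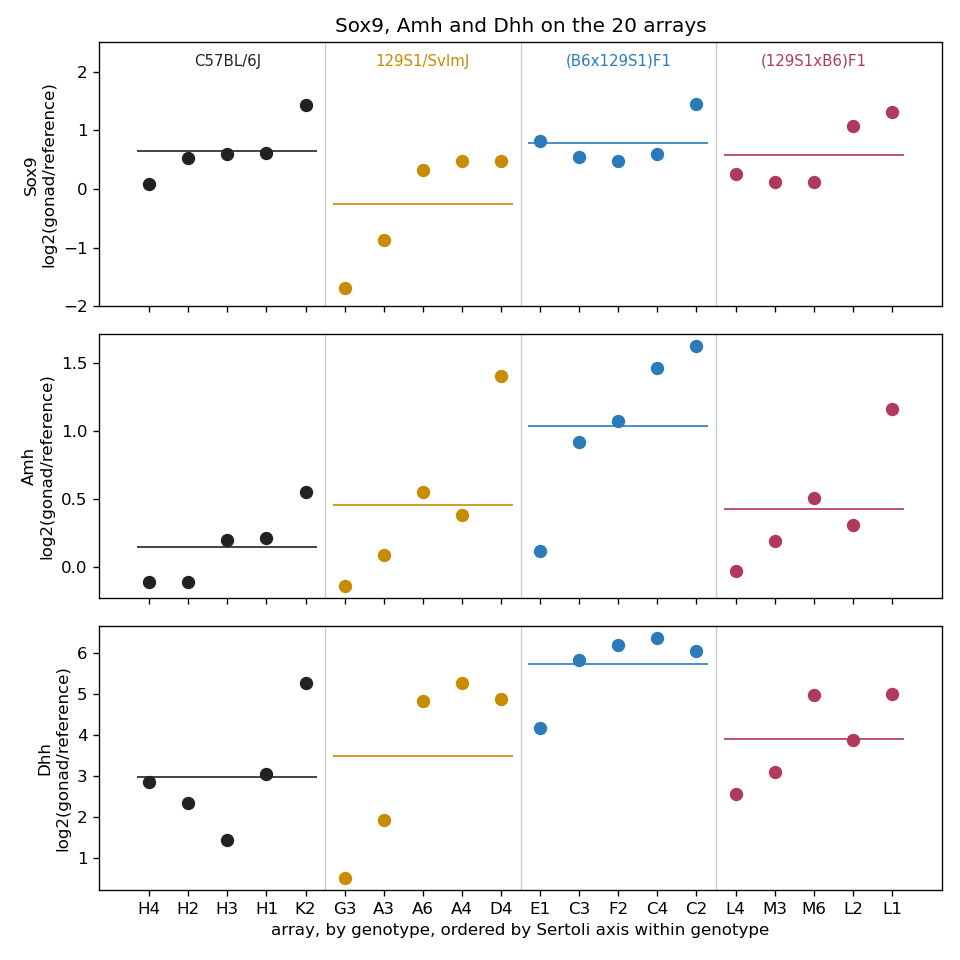
Log2 ratio of gonad over reference for Sox9, Amh and Dhh (vertical axes) on each of the 20 arrays (points, coloured by genotype), ordered within genotype by the mean of the 3 scaled residuals; lines are genotype means of 5 arrays. G3 (129S1/SvImJ) is lowest of its strain for all 3 genes, at -1.69, -0.14 and 0.50, and K2 (C57BL/6J) is highest of its strain, at 1.43, 0.55 and 5.25.

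Pooled over the 4 genotypes, the residuals of the 3 genes rose and fell together. Over 20 residuals, Sox9 and Amh had a Pearson correlation of 0.637 (permutation within genotype, p = 0.0071, adjusted over the 3 pairs 0.0071) and a Spearman correlation of 0.648 (permutation p = 0.007). Sox9 and Dhh had 0.746 (permutation p = 0.0045, adjusted 0.0067) and 0.686 (permutation p = 0.0096). Amh and Dhh had 0.719 (permutation p = 0.00037, adjusted 0.0011) and 0.797 (permutation p = 0.00015). Without the 2 arrays farthest out on the first gene the values of r were 0.563, 0.584 and 0.693. With slide terms they were 0.678, 0.744 and 0.874. Within letters they were 0.709, 0.678 and 0.617, and the adjusted permutation p of Sox9 with Dhh was then 0.058. The genotypes did not contribute alike. In (B6x129S1)F1 the residuals of Sox9 and Dhh had the same sign on 1 of 5 arrays and those of Sox9 and Amh on 2 of 5, against 5 and 4 of 5 in 129S1/SvImJ, 4 and 3 of 5 in C57BL/6J and 3 and 3 of 5 in (129S1xB6)F1. Residuals of Amh and Dhh had the same sign on 4 or 5 arrays of each group, 17 of 20 in all. The difference between groups was not tested.

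The link of Sox9 with Amh rested on the Sox9 probe used. Sox9 was read from the brightest of its 3 probes. A second probe, present in 10 spots of each array, correlated at 0.576 with the first over the residuals. It correlated at 0.673 with Dhh but at only 0.0992 with Amh. The third probe correlated at 0.339 with Dhh and 0.00452 with Amh. Amh and Dhh had 1 probe each among the probes kept.

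A Sertoli axis was formed as the mean, per array, of the residuals of the 3 genes after division of each by its pooled within-genotype SD, so that 1 unit is about 1 SD of the single genes. It placed 129S1/SvImJ G3 lowest at -1.81, followed by (B6x129S1)F1 E1 at -0.96 and 129S1/SvImJ A3 at -0.92. At the high end stood 129S1/SvImJ D4 at 1.33, C57BL/6J K2 at 1.19 and (129S1xB6)F1 L1 at 1.13. The SD of the axis was 1.31 in 129S1/SvImJ, 0.75 in (129S1xB6)F1, 0.696 in C57BL/6J and 0.658 in (B6x129S1)F1. In C57BL/6J the other 4 gonads lay between -0.50 and 0.04, so the spread of that strain along the axis was that of K2. The axis had a Pearson correlation of 0.0632 with the residuals of the median Cy5 signal (permutation p = 0.78) and 0.254 with those of the Cy3 signal (permutation p = 0.25). With the share of probes well above background it was 0.0521 (permutation p = 0.83). Spearman correlations were 0.0887, 0.217 and 0.00451 (permutation p = 0.7, 0.38 and 0.99). Without the 2 arrays farthest out, G3 and D4, r was 0.0648, 0.225 and 0.209, and the p-values adjusted over these 3 measures were 0.75 or more. Slide terms took up 10.9% of the axis's sum of squares (permutation p = 0.83). Terms for the letter took up 65.4%, a share that was not tested. Of the 20 arrays, 5 were alone in their letter (G3, D4, K2, E1 and F2), and letter terms leave such arrays no residual. Among them G3, D4, K2 and E1 lay near the ends of the axis, at -1.81, 1.33, 1.19 and -0.96.

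Each marker gene was also tested, with limma, against an axis made from only the other two, with Benjamini-Hochberg adjustment over all genes. Dhh had a slope of 1.31 ± 0.221 (SE) log2 units per unit of the Sox9 and Amh axis, with an adjusted p of 0.0035. For Sox9 the slope was 0.523 ± 0.111 (adjusted p = 0.019), and for Amh 0.383 ± 0.0877 (adjusted p = 0.039). Each slope was above 0 in 4 of 4 genotypes. In that ranking by p, Dhh stood at 77, Sox9 at 197 and Amh at 207 of the 22970 genes.

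Across all other genes, 320 of 22967 (1.39%) had a slope on the axis past an adjusted p of 0.05 in limma, with the genotype group as a term; such genes are said below to be called. Of these, 250 (1.09%) rose along the axis and 70 (0.305%) fell. The slope had the same sign in all 4 genotypes for 237 of the 250 and for 61 of the 70. Over all genes tested the median slope was 0.0072, and 54.7% lay above 0. Leaving out H1 gave 316 called genes and 14 called Sertoli genes of the list described below. Without K2 there were 298 called genes, of which 241 were among the 320. Leaving out 1 array moved the count by over 1.5 times in 3 of 20 cases, to 196 without 129S1/SvImJ G3, 208 without 129S1/SvImJ D4 and 209 without (129S1xB6)F1 L1. With slide as a block 400 genes (1.74%) were called, of which 310 (1.35%) rose and 90 (0.392%) fell. With the sample letter as a block the count was 35, all rising, with 9 residual degrees of freedom in place of 15. All 320 slopes kept their sign in that fit.

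**Figure D2:**
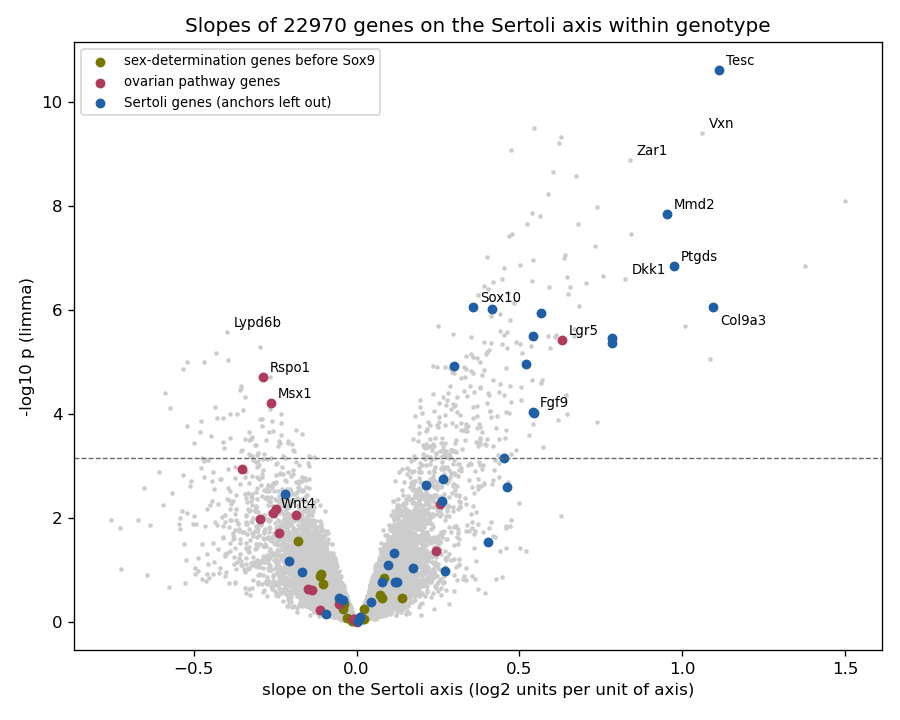
Slope of each of 22970 genes on the Sertoli axis within genotype (horizontal, log2 units per axis unit) against -log10 of its limma p (vertical); grey points are all genes, coloured points the members of 3 gene lists, and the dashed line marks the weakest call. Sertoli genes spread to the upper right, up to Tesc at 1.11, while Rspo1 and Msx1 lie on the left at -0.29 and -0.26.

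The gene that followed the axis most closely was Tesc, which encodes the calcium-binding protein tescalcin and is expressed in the early testis. Its level was 2.91 in H1, 1.89 in H2, 1.77 in H3, 1.80 in H4 and 3.34 in K2 of C57BL/6J, and 1.16 in A3, 2.82 in A4, 2.89 in A6, 3.38 in D4 and -0.63 in G3 of 129S1/SvImJ. In (B6x129S1)F1 it was 3.96 in C2, 3.29 in C3, 3.73 in C4, 2.77 in E1 and 3.73 in F2, and in (129S1xB6)F1 3.62 in L1, 2.59 in L2, 1.40 in L4, 1.67 in M3 and 2.79 in M6. The gonad highest on the axis exceeded the lowest by 4.01 log2 units in 129S1/SvImJ, by 1.54 in C57BL/6J, by 2.23 in (129S1xB6)F1 and by 1.19 in (B6x129S1)F1. The slope was 1.11 ± 0.08 (SE) with an adjusted p of 5.7e-07 in limma, from 0.69 in (B6x129S1)F1 to 1.25 in 129S1/SvImJ.

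Another 11 genes led those that rose. Tmem184a, a membrane protein gene expressed in Sertoli cells, had a slope of 0.55, and Vxn, which encodes the neural differentiation protein vexin, had 1.06 (both adjusted p = 2.8e-06). Vxn was low in C57BL/6J, where K2 stood at -2.22 and the other 4 gonads at -3.98 to -3.47. In 129S1/SvImJ it was -2.28 in A3, -0.04 in A4, -0.42 in A6, -0.07 in D4 and -3.18 in G3, the same order of the 5 gonads as for Dhh. Zar1, known from the oocyte and the zygote, had a slope of 0.84 and levels from 0.80 in G3 to 4.04 in F2. Kazald1, a secreted protein gene, rose with a slope of 0.63, Tpd52l1 with 0.62 and Col27a1, a fibrillar collagen gene, with 0.60. Aph1b, which encodes a gamma-secretase subunit, had 0.47, Acap1, a GTPase-activating protein gene, 0.67, and Shbg, the sex hormone-binding globulin gene, 0.59. Rtn4rl1, of the Nogo receptor family, had 0.74, and the glutathione transferase gene Gstm2 had 0.54. Adjusted p-values of these 12 genes lay between 5.7e-07 and 2.4e-05.

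Among genes that fell, the 12 of smallest p had slopes from -0.52 to -0.26. Lypd6b, of the Ly6 family, had the smallest p, with a slope of -0.40 ± 0.06 and an adjusted p of 0.0011. It was highest of its strain in G3 at 0.76 and lowest in D4 at -0.38 in 129S1/SvImJ, with A3 at 0.62, A4 at -0.34 and A6 at -0.33. In C57BL/6J all 5 gonads lay between 1.19 and 1.69, above the levels of the other three groups. Ces3b, a carboxylesterase gene, had -0.30, Gria1, a glutamate receptor subunit gene, -0.43, Asb4 -0.52 and Kyat3, a kynurenine aminotransferase gene, -0.47. Pls3, an actin-bundling protein gene, had -0.35, Srxn1, which encodes sulfiredoxin, -0.36, the protocadherin gene Pcdh9 -0.34, Speg -0.27 and Frmd3 -0.44. Rspo1 and Msx1 belong to the ovarian pathway and are given below. The adjusted p-values of these 12 genes ran from 0.0011 to 0.011, and none of the 12 was called with the letter as a block. Pls3, Srxn1, Pcdh9, Frmd3 and Msx1 also lost their calls without G3. On the axis without Amh, Srxn1, Frmd3, Msx1 and Rspo1 lost theirs. With the Sox9 probe of 10 spots Gria1, Pls3, Speg, Srxn1, Frmd3, Msx1 and Rspo1 did.

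**Figure D3:**
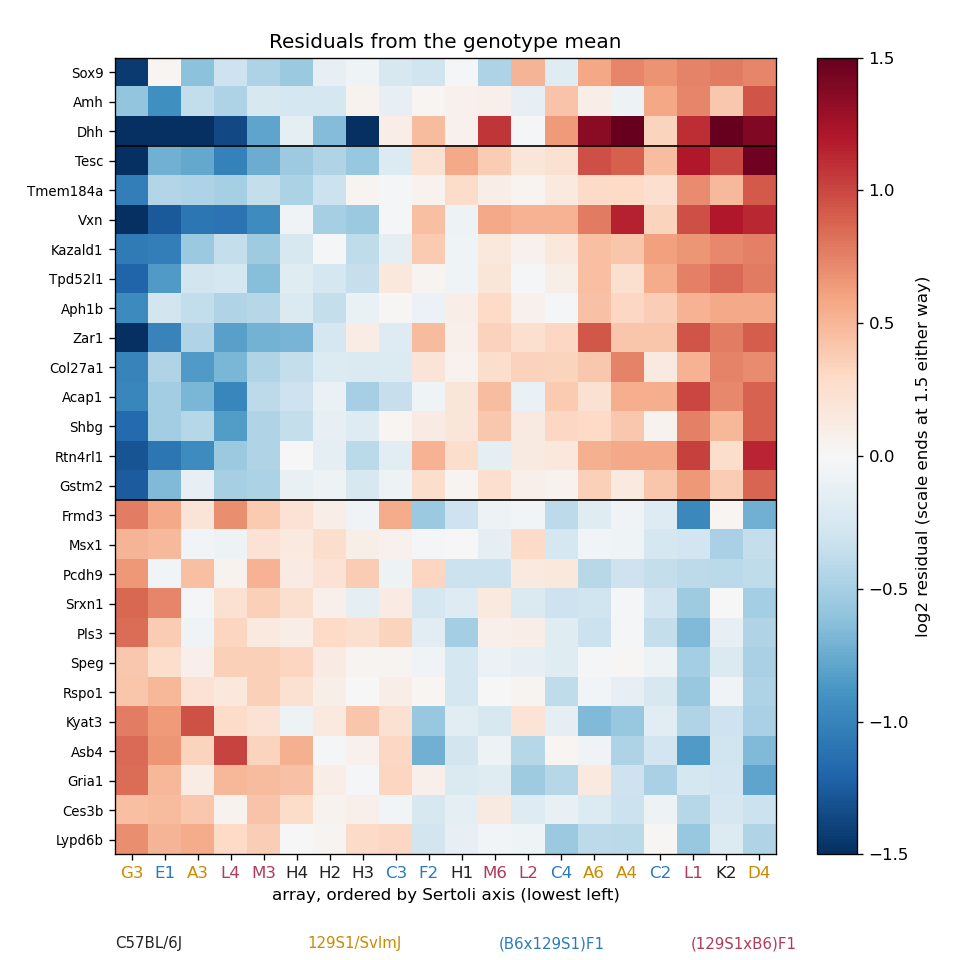
Residual from the genotype mean (colour, log2, scale ends at 1.5 either way) of Sox9, Amh, Dhh and the 12 leading genes in each direction (rows) on the 20 arrays (columns, coloured by genotype and ordered by axis, lowest left). G3 at -1.81 and D4 at 1.33, both 129S1/SvImJ, form the ends. Gonads of all 4 genotypes are mixed between them by construction, because the mean of each genotype was subtracted.

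Of 36 further Sertoli cell genes tested, 14 were called and all 14 rose, against 1.09% of all genes. The list was chosen with earlier results of these data known, so the count is not independent support for the axis. Its tested genes had a median within-genotype SD of 0.411, against 0.234 over all genes, so all genes are not a like background. The median slope of the 36 was 0.269, where that of all genes was 0.0072, and 30 of 36 lay above 0. Leaving out any 1 array left 12 to 16 called, while the fit with letter terms called 1, Tesc, at a median slope of 0.329 with 29 of 36 above 0. In bulk gonads, fewer Sertoli cells and less RNA per Sertoli cell cannot be told apart.

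Among the signals of Sertoli cells, Fgf9, the growth factor that sustains Sox9, had a slope of 0.54 ± 0.11 (adjusted p = 0.013). It was 0.75 in A3, 1.97 in A4, 2.03 in A6, 1.69 in D4 and -0.32 in G3 of 129S1/SvImJ, but in (B6x129S1)F1 the gonad highest on the axis, C2, had the lowest level, 1.28, against 1.87 to 2.19. It was no longer called without G3. Ptgds, the prostaglandin D synthase gene that can recruit Sertoli cells, had 0.97 ± 0.12 (adjusted p = 0.00012). It ran from -0.09 in G3 to 3.85 in D4 within 129S1/SvImJ, and E1, at 1.95, lay apart from the other (B6x129S1)F1 gonads at 3.32 to 3.49. Pdgfa, a growth factor gene, had 0.42 (adjusted p = 0.00046). Spry2, a feedback inhibitor that FGF signalling turns on, was the only called gene of 12 FGF targets (1.39% of all genes were called), at 0.38 ± 0.07 (adjusted p = 0.0057), though 11 of the 12 slopes lay above 0. For Etv1 and Etv4, FGF-responsive transcription factor genes, the slopes were 0.21 (adjusted p = 0.061) and 0.35 (adjusted p = 0.12), and Etv1 was called with slide as a block (adjusted p = 0.015). The call of Spry2 was lost without the 4 arrays of slide 1, as was that of Fgf9. Fgfr2, an FGF receptor gene of the Sertoli list, had the lowest slope of that list, -0.22 (adjusted p = 0.14 in limma). It was not called, but its slope was below 0 in all 4 genotypes.

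Of the transcription factors related to SOX9, Sox10 rose with a slope of 0.36 ± 0.05 (adjusted p = 0.00043) and Sox8 with 0.30 ± 0.05 (adjusted p = 0.0029). Sox8 was 0.56 in K2 against -0.25 to 0.02 in the other C57BL/6J gonads. Dmrt1, a transcription factor gene of Sertoli and germ cells, had -0.17 (adjusted p = 0.67). Among enzymes and secreted products, Mmd2 had 0.95, Col9a3, a cartilage-type collagen gene, 1.10 and Cst9, a cystatin gene, 0.79. Aard had 0.78, Gatm, an enzyme of creatine synthesis, 0.57, Trim47 0.54 and the clusterin gene Clu 0.52. Cyp26b1, which degrades retinoic acid, had 0.55 (adjusted p = 0.013). Its call was lost without G3, on the axis without Sox9 and on the axis without Dhh. Clu lost its call without G3 and with the Sox9 probe of 10 spots. Adjusted p-values of the 7 genes from Mmd2 to Clu lay between 2.4e-05 and 0.0027. Cst9 ran from 1.97 in G3 to 6.43 in C4. Mro, at 0.45, had an adjusted p of 0.05 and was not called, but was with slide as a block (adjusted p = 0.0047), as was Cbln4 (0.093 without the block and 0.021 with it). Hsd17b3 had 0.40 (adjusted p = 0.44), Inha 0.0058 (adjusted p = 0.99), and Vnn1 -0.054 (adjusted p = 0.86).

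Of 17 tested genes that act before Sox9, none was called in limma, where 1.39% of all genes were. An unadjusted p under 0.05 was found for 1 of the 17, against 2085 of all 22967 genes. That gene was Kdm3a, a histone demethylase needed for Sry, at -0.18. Counts this small do not set the 17 genes apart from all genes. Their median slope was -0.013. Nr5a1, the orphan receptor gene of the early gonad, had -0.013 ± 0.154, Gata4 0.14 ± 0.14 and Wt1 -0.11 ± 0.07. The standard errors of Nr5a1 and Gata4 were wider than that of Tesc.

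Ovarian pathway genes leaned the other way. Of 18 tested, 2 fell (against 0.305% of all genes) and 1 rose, with 14 of 18 slopes below 0 and a median of -0.143. Rspo1, the WNT-enhancing signal of the XX gonad, had a slope of -0.29 ± 0.05 (adjusted p = 0.004). Its level was 1.37 in A3, 1.04 in A4, 1.12 in A6, 0.69 in D4 and 1.57 in G3 of 129S1/SvImJ, and 0.85 in L1, 1.46 in L2, 1.58 in L4, 1.77 in M3 and 1.42 in M6 of (129S1xB6)F1. D4 and L1, the highest gonads of these groups on the axis, had the least Rspo1. That did not hold in the other groups. In C57BL/6J the highest on the axis, K2, had 1.68 and H1 the least, 1.47. In (B6x129S1)F1 the highest, C2, had 0.83 and C4 the least, 0.68. Msx1, a homeobox gene, had -0.26 ± 0.05 (adjusted p = 0.0096), with K2 at -0.57 against -0.09 to 0.18 in the other C57BL/6J gonads. Both genes lost their calls on the axis without Amh, with the Sox9 probe of 10 spots and with letter terms, and Msx1 also without G3. Bmp2 at -0.35 (adjusted p = 0.07), Fst at -0.30 (adjusted p = 0.28) and Wnt4 at -0.26 (adjusted p = 0.23) were not called, and Foxl2, the granulosa cell factor gene, had -0.0065 (adjusted p = 0.99). Lgr5, the R-spondin receptor gene, rose with a slope of 0.63 ± 0.10 (adjusted p = 0.0013). Of 13 WNT target genes, 3 rose, against 1.09% of all genes: Lgr5, Dkk1 at 0.82 (adjusted p = 0.00018) and Nkd2 at 0.57 (adjusted p = 0.0049). Dkk1 and Nkd2 encode inhibitors of WNT signalling. Nkd2 lost its call without G3 and on the axis without Dhh. Lef1 and Axin2, also WNT targets, had -0.18 (adjusted p = 0.25) and -0.14 (adjusted p = 0.81).

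**Figure D4:**
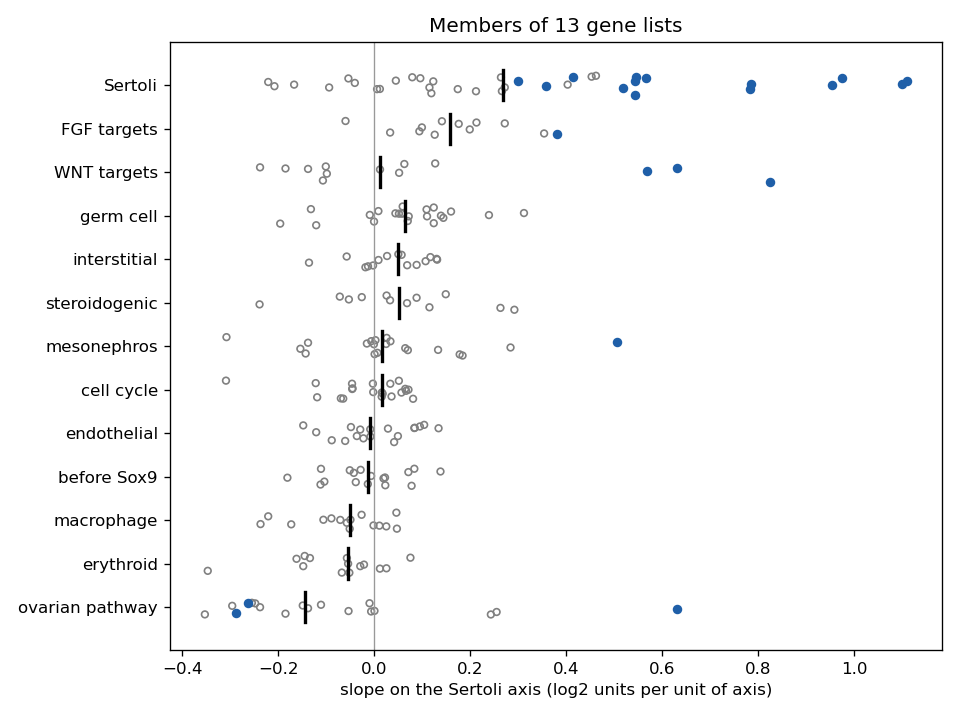
Slope on the Sertoli axis (horizontal, log2 units per axis unit) of each tested member of 13 gene lists (rows); filled points passed an adjusted p of 0.05, open points did not, and black bars are list medians. The Sertoli list has 14 filled points and a median of 0.269, and the ovarian pathway list has a median of -0.143.

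Markers of other cell types were also read against the axis. Over the germ cell, endothelial, erythroid, macrophage, steroidogenic and interstitial lists, 0 of 96 tested genes were called in limma, where 1.39% of all genes were. An unadjusted p under 0.05 was found for 6 of the 96, against 2085 of all 22967 genes. These counts do not set the lists apart from all genes. With slide as a block 2 of the 96 rose, where 1.35% of all genes did. They were the germ cell gene Dnd1 (adjusted p = 0.031) and Fdxr of the steroidogenic list (adjusted p = 0.029). List medians ran from -0.056 (erythroid) to 0.065 (germ cell). Star had a slope of -0.072 (adjusted p = 0.94), Pecam1 -0.15 (adjusted p = 0.63) and Ddx4 0.24 (adjusted p = 0.67). Of 20 mesonephros genes 1 rose, against 1.09% of all genes, Spp1 at 0.51 (adjusted p = 0.0086), and its call was lost without G3. Cdh16, a tubule cadherin gene, marked single gonads without following the axis: it stood at 4.35 in M3 and 3.43 in M6, against -0.69 to 0.22 in the L gonads of the same cross. None of 21 cell cycle genes was called and 1 had an unadjusted p under 0.05, which does not set them apart from all genes either. Of 15 hypoxia genes, Adm, which encodes adrenomedullin, fell at -0.41 (adjusted p = 0.015), where 0.305% of all genes fell. Its call was lost without G3, on the axis without Dhh and with slide as a block (adjusted p = 0.066).

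The 3 marker genes taken singly picked partly different leading genes. On Sox9 alone, 79 of 22969 genes (0.344%) were called, 71 rising (0.309%) and 8 falling (0.0348%). The smallest p-values belonged to Fbln2, a matrix glycoprotein gene, Socs2, a cytokine signalling inhibitor gene, Tesc, Ppp1r3c and Aph1b. On Amh alone 221 genes (0.962%) were called, 162 rising (0.705%) and 59 falling (0.257%), led by Arhgdig, Bhlhe40, the chemokine gene Ccl17, Pnmt and Mcrip2. On Dhh alone 256 (1.11%) were called, 192 rising (0.836%) and 64 falling (0.279%), led by Vxn, Col9a3, Afap1l2, the WNT receptor gene Fzd9 and Tesc. These counts depended on single gonads. The Sox9 count was 10 without 129S1/SvImJ G3, 27 without D4, 29 without L1, 42 without A4, 46 without A3, 51 without L4, 52 without K2 and 142 without M6. The Amh count was 59 without D4, 86 without L1, 122 without G3 and 599 without A3, and the Dhh count was 152 without G3. The difference between the 3 counts was not tested.

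Slopes were compared between genotypes by the interaction of axis and group. It called 12 of 22967 genes (0.0522%), while 1258 genes had an unadjusted p under 0.05. When slide was added as a block, 0 were called and 2812 had such a p. In the 12 the slope of C57BL/6J stood apart, as for Sp1, a general transcription factor gene, at -1.02 there and -0.25 to 0.06 in the other three groups. Sp1 was chosen after its values were seen. Leaving out 1 array gave 0 to 44 called genes and moved the count by over 1.5 times in 15 of 20 cases, with 0 without L2, F2, A4, G3 or H3 and 44 without K2, the gonad that sets the C57BL/6J range of the axis. Tesc, with an adjusted interaction p of 0.93, and the other leading genes were not among the 12.

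The total spread within genotype differed by less than the test could call. The root mean square residual per array averaged 0.284 ± 0.0423 (SD, n = 5) in 129S1/SvImJ and 0.28 ± 0.0532 in C57BL/6J. It averaged 0.258 ± 0.0159 in (129S1xB6)F1 and 0.243 ± 0.0296 in (B6x129S1)F1. The largest difference was 0.0403, between 129S1/SvImJ and (B6x129S1)F1 (two-sided exact permutation p = 0.127, adjusted over 6 pairs 0.505; the smallest p that 5 against 5 can give is 0.00794). With another background correction and normalisation (normexp and loess), 129S1/SvImJ exceeded (B6x129S1)F1 by 0.0601 and (129S1xB6)F1 by 0.0491, each with an adjusted exact permutation p of 0.048. With slide as a block these differences were 0.0263 and 0.00497 (adjusted exact permutation p = 0.56 and 0.93). Without G3 they were 0.0198 and 0.00479. Slide 1 held only parental arrays and slide 5 only hybrid arrays, so slide and this contrast are partly confounded. The parental strains had more genes with an SD over 0.5, namely 1938 in 129S1/SvImJ and 1721 in C57BL/6J, against 1303 in (129S1xB6)F1 and 1114 in (B6x129S1)F1; that difference was not tested. The pooled within-genotype SD had a median of 0.234 over genes and a 99th percentile of 0.794. Dhh, at 1.46, ranked 8 of 22970, Sox9, at 0.65, ranked 519, and Amh, at 0.49, ranked 1435. Afp (2.14), Rbp4 (1.48) and Spp2 (1.44) were among the 10 with the largest SD, and each was highest in H1. Rbp4, the retinol carrier gene of liver, stood at 1.54 in H1 and at -5.40 to -3.49 elsewhere. Lars2 and Pigt also belonged to the 10, and both were lowest in K2, at -3.82 and -4.29.

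The Sertoli axis was not the largest direction of covariation. The first principal component of the residuals held 22.2% of their variance, the second 13.6% and the third 11.8%. Slide terms took up 80.9% of the sum of squares of the first component, with the 4 arrays of slide 1 between -33.4 and -19.0, together with C2 at -28.5 and L1 at -31.2 on slide 4. The other arrays of slide 4 lay at the opposite end, G3 at 26.6 and H4 at 18.6. Its correlation with the axis over the 20 arrays, which share slides and genotype means, was -0.40. Leading genes of the component, among them Ptprz1, Ap1ar and Ormdl3 at one end and S100g, Prap1 and Mast4 at the other, had axis slopes with adjusted p-values from 0.69 to 0.91. On the second component C57BL/6J K2, near the high end of the axis, stood at -44.8, against -18.6 to 18 on the other arrays.

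**Figure D5:**
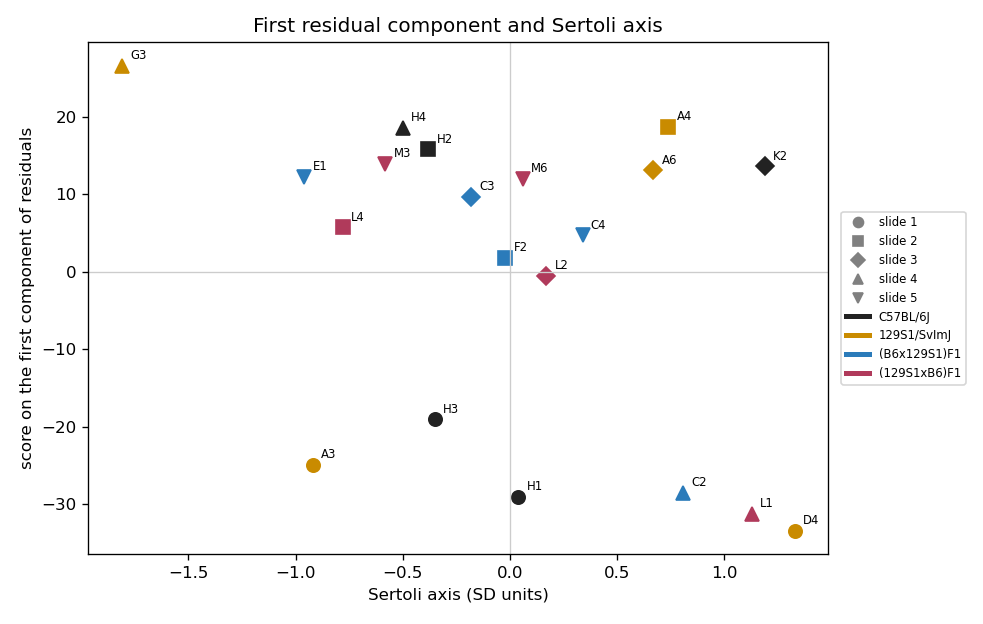
Score on the first principal component of the residuals (vertical) against the Sertoli axis (horizontal, SD units) for the 20 arrays; colour is genotype and marker shape the slide. All 4 arrays of slide 1 lie at -19.0 or below on the component while their axis values run from -0.92 to 1.33.

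Proximal promoters are shown for Dhh and for members of the Sertoli list that rose together. RefSeq promoter windows (GRCm38.p6) were at hand for 10 of the 14 called Sertoli genes and for Dhh; Sox9 and Amh are named only. Each is the 250 bases before the annotated start, 5′ to 3′ on the gene's strand, with capitals on matches on either strand. The letters searched were ACAAAG for SOX factors with its variants written ACAATG or else AACAAT, then AAGGTCA for NR5A1, AGATAA for GATA factors and a further GATA form, TGATAA. Dhh (chr15:98898541-98898790, minus strand) and Tesc (chr5:118027493-118027742, plus strand) are shown as the genes with the largest range and the closest fit, and Cst9 (chr2:148834897-148835146, plus strand) and Pdgfa (chr5:138994282-138994531, minus strand) as the 2 of the 10 with a SOX motif.
Dhh: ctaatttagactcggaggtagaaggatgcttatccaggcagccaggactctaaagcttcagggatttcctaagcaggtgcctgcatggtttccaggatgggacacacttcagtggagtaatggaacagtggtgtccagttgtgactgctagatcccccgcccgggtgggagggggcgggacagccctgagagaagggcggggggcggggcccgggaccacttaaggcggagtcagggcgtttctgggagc
Tesc: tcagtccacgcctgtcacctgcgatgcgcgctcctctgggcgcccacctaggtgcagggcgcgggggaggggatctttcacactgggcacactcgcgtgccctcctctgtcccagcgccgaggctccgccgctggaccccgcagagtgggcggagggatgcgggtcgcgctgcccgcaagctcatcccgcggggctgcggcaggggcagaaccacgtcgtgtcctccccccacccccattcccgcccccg
Cst9: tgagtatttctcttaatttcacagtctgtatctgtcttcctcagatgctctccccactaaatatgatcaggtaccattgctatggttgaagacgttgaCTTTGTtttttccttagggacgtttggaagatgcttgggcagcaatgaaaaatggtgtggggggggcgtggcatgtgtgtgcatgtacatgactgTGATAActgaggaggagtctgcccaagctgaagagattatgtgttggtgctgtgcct
Pdgfa: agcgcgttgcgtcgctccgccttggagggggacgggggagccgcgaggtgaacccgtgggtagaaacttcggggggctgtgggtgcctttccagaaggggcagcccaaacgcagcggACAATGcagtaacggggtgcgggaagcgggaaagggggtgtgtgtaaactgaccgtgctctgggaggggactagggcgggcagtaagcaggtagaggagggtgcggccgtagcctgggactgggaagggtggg
The windows of Dhh and Tesc held none of these letters. In Cst9 a reverse match to ACAAAG began 152 bases before the start and TGATAA began 57 before it, and in Pdgfa ACAATG began 133 before it. Of all 32851 windows, 29.6% held at least 1 of the 3 SOX forms, whose letters overlap in part, and 2 of the 10 windows is below that share. The share was 16.5% for ACAAAG, 10.7% for ACAATG, 9.42% for AACAAT, 4.08% for AAGGTCA, 9.99% for AGATAA and 7.94% for TGATAA.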

How the data were processed

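The 20 2-colour Agilent arrays were read as the authors' scanner output. Intensity values, per the file headers, came from Agilent Feature Extraction 9.1.3.1 and were background-subtracted, spatially detrended and dye-normalised. The deposited table of log2 ratios, made by the authors, correlated at 0.935 to 0.96 with the ratios used here and served as an alternative. The genome build and annotation were not given in the sources used here. Here log2 of processed Cy5 over Cy3 was taken, 101 outlier spot values were left out, spots of a probe were averaged, probes well above background on at least 15 arrays were kept, and the brightest probe stood for a gene (22970 genes). Of 41174 gene probes, names came from RefSeq accessions for 22951, from symbols for 6659, from synonyms for 3109 and from the array's own annotation for 8455.

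Slopes, with the genotype group as a term, were tested with limma 3.58.1 in R 4.3.3 and adjusted by Benjamini-Hochberg over all genes, after a run on simulated data. Correlations used 100000 permutations within genotype. Nothing in the labels says that embryos came from separate litters, so p-values measure the spread between these samples. The members and gene lists (22 lists, 366 entries) were chosen with earlier results of these data known. Named were the 3 marker genes, the 12 called genes of smallest p in each direction whose slope had the same sign in all 4 groups (passing over clone names), the 5 of smallest p in each single-gene fit, the members of the Sertoli, ovarian and sex-determination lists, 3 genes of each other list, the 10 of largest SD and the 8 at each end of the first component. Of the 22 lists, those not named in the report (immediate early genes, Hox genes, heterochronic genes, nervous and muscle genes, Y-linked genes and 2 label checks) had 0 called members among 19, 17, 9, 13, 6 and 2 tested, except Sox10, which is also in the nervous and muscle list; 2, 3, 1, 1, 1 and 1 members had an unadjusted p under 0.05 in limma. Among all 22967 genes 1.39% were called and 2085 had an unadjusted p under 0.05 in limma. With slide as a block Uba1y, of the Y-linked list, was called (adjusted p = 0.029), where 1.74% of all genes were. The list of bipotential gonad genes is not reported here.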

Additional observations from a re-analysis of the deposited data

Results flagged for a closer look

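Dixon's test was applied to 112 sets of 5 values (the marker genes, the genes given array by array, the axis, the root mean square residual, the first component and 3 list means, in each genotype), and 9 passed its critical value of 0.71. Chance marks about 1 in 20 sets that are picked without regard to their values. These sets were not so picked: Afp and Cdh16 were named for their large SD, and several genes follow the same axis. The 9 can therefore not be set against that rate. In C57BL/6J H1, Afp at 2.78 lay 0.862 of the group's range from the nearest other gonad, at -5.09, and the mean residual of the liver and trophoblast list, at 2.47, lay 0.886 of the range from the next, at -0.47. Afp was also apart in (129S1xB6)F1 L4, at -3.7 against -5.55 to -5.3. (B6x129S1)F1 E1, the lowest gonad of its group on the axis, was apart for Dhh, at 4.16 against 5.81 to 6.35, and for Ptgds, at 1.95 against 3.32 to 3.49. C57BL/6J K2, the highest of its strain on the axis, was apart for Vxn, at -2.22 against -3.98 to -3.47. Cdh16 was apart in C57BL/6J H3, at 2.05 against -0.42 to 0.06, and in (B6x129S1)F1 F2, at 1.49 against -0.73 to -0.19. (B6x129S1)F1 C2 was apart on the first component, at -28.5 against 1.78 to 12.3.

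The slope on the axis differed between genotypes for 12 of 22967 genes (0.0522%) by the interaction test of limma. With slide as a block 0 genes were called. Leaving out L2, F2, A4, G3 or H3 singly also gave 0, and leaving out K2 gave 44. Fam209 had -2.16 in C57BL/6J and -0.095 to 0.0911 elsewhere (adjusted p = 0.03), and Thap6 had -1.38 against -0.128 to 0.112 (adjusted p = 0.039); both were chosen after their values were seen.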

How the results depend on the processing

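Of 54 named genes called on the axis, 42 kept the call in each of the 20 fits that left out 1 array, and 13 also in each other setting that gave a value for them (15 settings, but 14 for Vxn, which the filter of 20 arrays removed); none changed sign. The block for the sample letter ended the call of 41 of them, the Sox9 probe of 10 spots, chosen after seeing the data, that of 14, leaving out G3 that of 11, leaving out slide 1 that of 3 and the slide block that of 2. With letter terms 35 genes and 1 Sertoli gene were called on the axis, and r of Sox9 with Dhh was 0.678, past the threshold no longer. Letter terms left 34.6% of the axis's sum of squares and 9 residual degrees of freedom. They left no residual for the arrays alone in their letter, among them G3, D4, K2 and E1 near the ends of the axis. Why the calls were lost was not tested. The 10-spot probe gave 247 axis genes and r of 0.0992 for Sox9 with Amh (adjusted permutation p = 0.79), and leaving out slide 1 gave 229 axis genes. With the slide block, Sox9 alone called 149 genes, Dhh alone 394 and the interaction 0; with normexp and loess, Sox9 alone called 27 and Dhh alone 170, and the difference in spread of 129S1/SvImJ from (B6x129S1)F1 was 0.0601 and from (129S1xB6)F1 0.0491. The difference of C57BL/6J from 129S1/SvImJ in spread, -0.00371, was 0.00196 with no filter on dim probes. The cause was not tested for any of these. The other 80 values from settings other than leaving out 1 array kept their direction and side of the threshold, or stayed within 1.5 times for counts.

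Leaving out each array in turn moved the number of axis genes from 196 (without G3) to 386 (without A3), the Sox9 genes from 10 to 142, the Amh genes from 59 to 599, the Dhh genes from 152 to 257, and the interaction genes from 0 to 44. Sertoli genes called went from 12 to 16. The spread of C57BL/6J minus 129S1/SvImJ ran from -0.033 without K2 to 0.0168 without G3, and minus (129S1xB6)F1 from -0.00768 without K2 to 0.0365 without M6. No paired analysis was possible because the sample codes are not shared between groups. Signal over background limits Sry and other genes well above background on fewer than 15 arrays, which were not tested.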

Other observations

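Of the 7 mu class glutathione transferases tested, 5 rose along the axis, where 1.09% of all genes did (Gstm1, Gstm2, Gstm3, Gstm6 and Gstm7), with a median slope of 0.471 over the 7, against 0.0761 over all 20 glutathione transferases tested. Gstm2 ran from 2.53 in 129S1/SvImJ G3 to 5.03 in (B6x129S1)F1 C2. These paralogs are near-identical in part, and their probes may read more than one of them. Of 42 collagen genes, 8 rose and 1 fell, where 1.09% of all genes rose and 0.305% fell. Both families were looked at after the values were seen. In the fit with the sample letter as a block, the rising genes included Rtn4rl1 (0.834), Cspg4 (0.549), Emilin3 (0.671), Smoc2 (0.654), Bcar3 (0.585) and Lama4 (0.528). Emilin3, Smoc2 and Lama4 encode extracellular matrix proteins. This set was not tested for enrichment.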
